A study of Mus musculus with 16 samples.

Results

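Potassium channels let neurons repolarise after an action potential and hold the membrane near its resting potential. Transcripts of 44 neuronal potassium channel genes were followed in cultured mouse cortical neurons that expressed normal or mutant huntingtin, with or without knockdown of the transcription factor Twist1. The set was defined by gene symbol and held 40 genes of pore-forming subunits and 4 of cytoplasmic partners, out of 41388 genes listed in each library. All 44 were found and all passed the filter on low counts.

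Primary cortical neurons of Swiss Webster mice were prepared at embryonic day 16, transduced on day 5 in culture and harvested on day 10, and RNA depleted of ribosomal RNA was sequenced. Every culture received a lentivirus for exon 1 of huntingtin (Htt), the gene mutated in Huntington disease, carrying either 25 glutamines (25Q, the wild-type control) or 72 glutamines (72Q, the mutant), together with a lentivirus for a short hairpin RNA (shRNA). There were 4 groups of 4 libraries. The control shRNA, directed against luciferase, was given with 25Q and with 72Q, and each of 2 shRNAs against Twist1 (shRNA 1 and shRNA 2) was given with 72Q. A single library of each group came from each of the experiments labelled exp107, exp108, exp109a and exp109b. They are counted as 4 experiments here, although how exp109a and exp109b relate is unstated in the labels. Both lentiviruses were present in all groups, no group without lentivirus was analysed here, and 25Q was combined with the control shRNA alone. Within a group, values by library are given below in the order exp107, exp108, exp109a and exp109b.

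Voltage-gated (Kv) subunits open on depolarisation and are grouped by family, among them the Kv1 and Kv3 delayed rectifiers, the fast-inactivating Kv4 channels, the ether-a-go-go (EAG, ERG and ELK) channels and the KCNQ subunits of the M-current, which restrains repetitive firing. Inward rectifiers and tandem-pore leak channels set the resting potential. Calcium- and sodium-activated channels shape the afterhyperpolarisation that follows spikes. In cortical neurons these families together set how readily and how often a cell fires.

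Depth was even, at 15814525 to 19533034 counts per library. Twist1 CPM (counts scaled to library size) was 0.290, 0.550, 0.245 and 0 in the 25Q libraries and 3.29, 5.08, 3.84 and 4.39 in 72Q, and fell to 1.82, 1.69, 0.904 and 1.87 with shRNA 1 and 1.40, 2.19, 1.29 and 1.70 with shRNA 2. Every shRNA library was below every 72Q control library and above every 25Q library, in which Twist1 had 0 to 9 counts. The falls were -1.35 ± 0.20 and -1.29 ± 0.19 log2 units (adjusted p = 1.52e-06 and 2.97e-06, edgeR). The CPM of mouse Htt averaged 276 ± 35.4 with 25Q and 243 ± 14.4 with 72Q (± SD, n = 4), and whether reads of the transduced exon 1 enter that value is unstated in the labels. Mitochondrial transcripts took 2.41 to 2.78% of counts in 25Q, 3.16 to 3.59% in 72Q with the control, 2.39 to 3.26% with shRNA 1 and 2.10 to 2.78% with shRNA 2. All 8 neuronal marker genes examined were abundant, with a summed level of 7190 to 8027 CPM in 25Q and 4507 to 5507 CPM in 72Q. Astrocyte markers (976 to 1192 CPM in 25Q and 1114 to 1400 in 72Q, 6 genes) and oligodendrocyte-lineage markers (1021 to 1141 and 1054 to 1192, 7 genes) were also present. Microglial and vascular transcripts were scarce, with Tmem119 and Cldn5 at 0 counts in all 25Q libraries.

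The 25Q neurons expressed these genes over a wide range, given here per length as CPM per kilobase of gene length (RPKM). Kcnh3, an ELK channel of forebrain, was the highest at 56.9 ± 2.01 RPKM (mean ± SD, n = 4), followed by the inward rectifier Kcnj4 at 45.0 ± 0.786 RPKM. Kcnf1, Kcnq3 and Kcnq5 came next at 28.2 ± 2.93, 27.5 ± 3.90 and 27.0 ± 1.57 RPKM, and these neighbours did not differ beyond their spread. Kcnj2 at 1.52 RPKM and Kcna5 at 0.397 RPKM were the lowest. The members with the highest levels in 25Q were therefore not from 1 family, and the highest member of each family is described by library below.

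**Figure D1:**
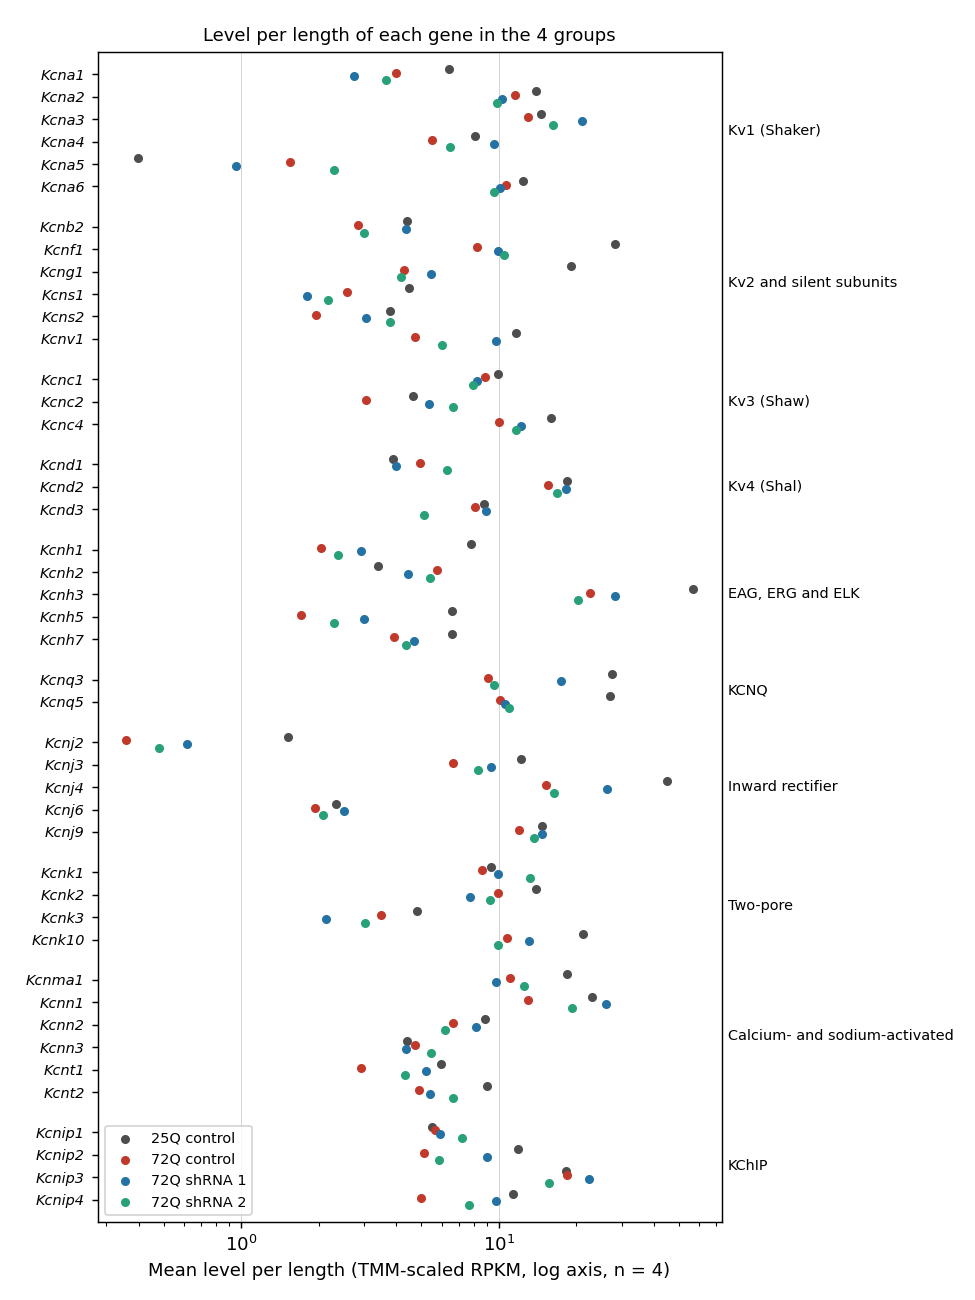
Mean level per length (TMM-scaled RPKM, log axis, n = 4 libraries) of the 44 potassium channel genes in the 4 groups, arranged by family. Kcnh3 and Kcnj4 were the highest in 25Q at 56.9 and 45.0 RPKM, and Kcna5 the lowest at 0.397 RPKM.

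The first comparison asked what mutant huntingtin did to these channels, in 72Q against 25Q with the control shRNA. Potassium channel transcripts were mostly lower in 72Q neurons. Of the 44 genes, 36 fell, 3 rose and 5 were not called at an adjusted p of 0.05, by edgeR's quasi-likelihood test with Benjamini-Hochberg adjustment over 15103 genes. The falls made up 81.8% of the members, where 27.8% of all tested genes fell, and the rises made up 6.82%, where 29.3% of all tested genes rose. The fall reached at least 1 log2 unit, a halving, in 13 members, against 4.2% of all tested genes. The median log2 fold change of the members was -0.68, and that of all tested genes was 0.03. The genes that rose were Kcna5, Kcnh2 and Kcnd1.

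Neuronal markers moved with this result. All 8 fell, with a median log2 fold change of -0.84, among them Slc17a7, the vesicular glutamate transporter of excitatory neurons (-1.05), Gad1, of inhibitory neurons (-1.04), and Map2, a dendritic protein (-0.19). Of the 6 astrocyte markers 4 rose and none fell, and of the 7 oligodendrocyte-lineage markers 2 rose and 1 fell. Neural progenitor and proliferation markers rose in 4 of 6 cases with no fall (median 0.24), and 3 of the 5 endothelial, mural and meningeal markers tested fell (median -0.79). The part of these shifts and of the mitochondrial share in the channel result was not tested. In bulk RNA, fewer neurons and less channel RNA per neuron cannot be told apart.

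Falls were seen in each experiment. The median difference over the 44 genes between 72Q and 25Q was -0.53 log2 units in exp107, -0.78 in exp108, -0.58 in exp109a and -0.86 in exp109b, against 0.0032 to 0.044 for all tested genes. Between 38 and 40 of the 44 genes were lower in 72Q within each experiment. The experiments with the larger median falls, exp108 and exp109b, were also those in which Twist1 was highest in 72Q, at 5.08 and 4.39 CPM, against 3.29 CPM in exp107 and 3.84 CPM in exp109a. Of that pair, exp109b had the larger fall and the lower Twist1. With 4 experiments this is a description of these libraries only, and a link with Twist1 was not tested.

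**Figure D2:**
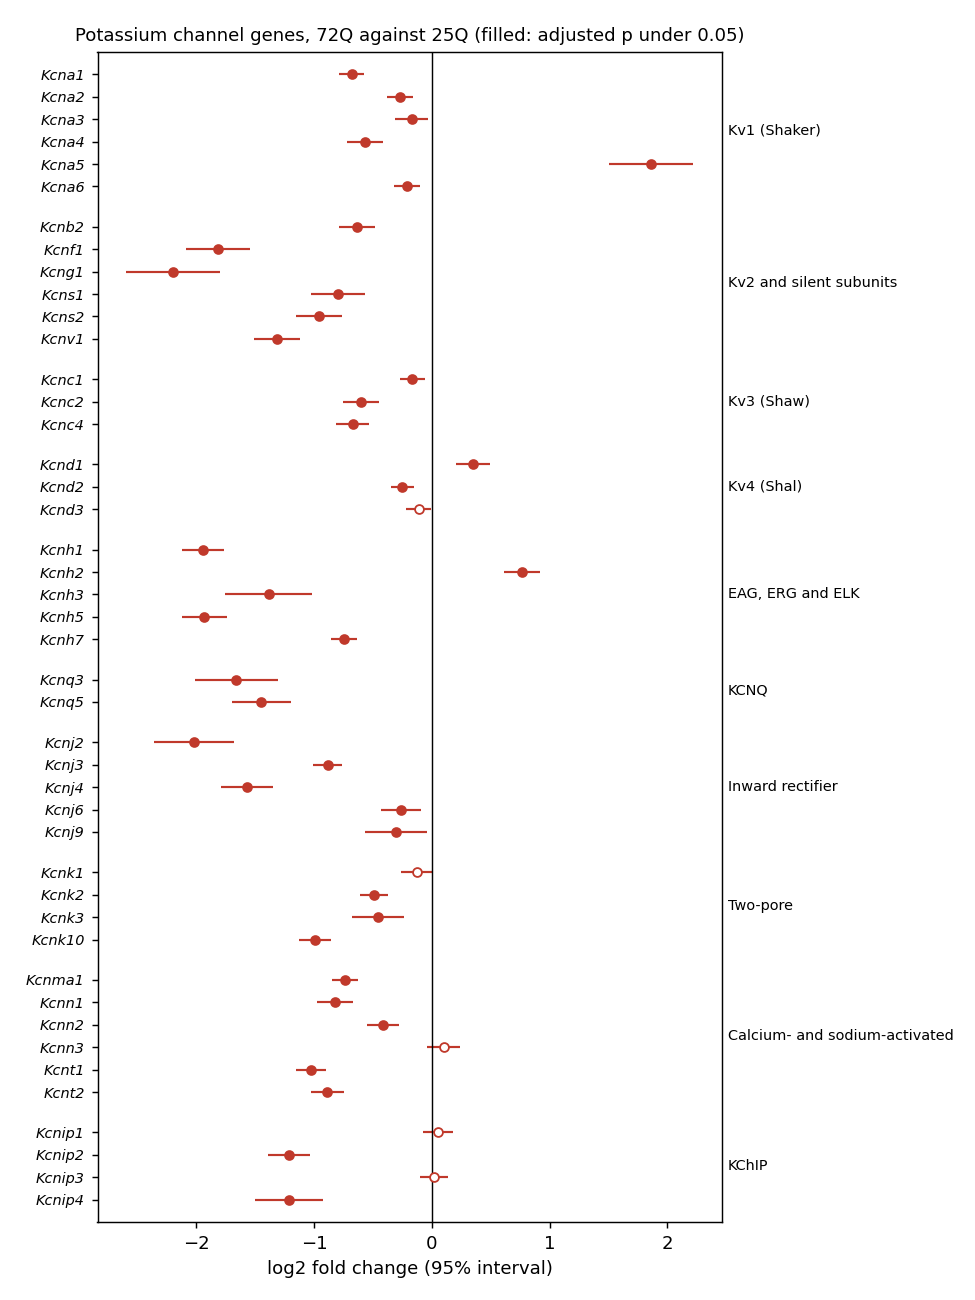
Log2 fold change of each potassium channel gene in 72Q against 25Q (points, with 95% interval as lines; n = 4 libraries per group), arranged by family. Filled points passed an adjusted p of 0.05. The intervals of 36 genes lie below 0 with a call, from Kcng1 at -2.20 to Kcnc1 at -0.17, while Kcna5 stands at 1.86.

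The steepest fall was that of Kcng1 (ENSMUSG00000074575, chr2:168260117-168281736), a silent Kv subunit that forms no channel by itself and alters Kv2 channels when it joins them. The CPM was 83.5, 62.7, 99.6 and 99.1 in 25Q and 25.1, 8.17, 27.6 and 16.8 in 72Q. All 72Q libraries were below all 25Q libraries, and exp108 was the lowest in each group. The log2 fold change was -2.20 ± 0.18 (± SE; adjusted p = 1.67e-06).

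Other silent subunits fell with it. Kcnf1 (ENSMUSG00000051726, chr12:17172100-17176888), the most abundant of them per length, measured 132, 117, 148 and 144 CPM in 25Q and 48.5, 28.1, 51.5 and 29.6 CPM in 72Q, a change of -1.81 ± 0.12 log2 units (adjusted p = 1.21e-07). Kcnv1 (ENSMUSG00000022342, chr15:45106284-45114934) was nearly constant in 25Q, at 53.3, 52.6, 51.8 and 52.6 CPM, and stood at 25.6, 17.7, 25.1 and 16.9 CPM in 72Q (-1.31 ± 0.09, adjusted p = 4.36e-10). In both genes the groups were apart, and in 72Q the exp108 and exp109b libraries were the lower pair. Kcns1 and Kcns2 fell by 0.79 and 0.96 log2 units, and Kcnb2, the pore-forming Kv2 subunit of the set, fell by 0.64. All 6 genes of this family thus fell.

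The ether-a-go-go family held 2 of the 4 steepest falls and 1 of the 3 rises. The EAG channel Kcnh1 (ENSMUSG00000058248, chr1:192190784-192510159) measured 62.2, 52.7, 54.4 and 58.8 CPM in 25Q and 19.4, 11.4, 16.7 and 12.4 CPM in 72Q, a change of -1.94 ± 0.09 (adjusted p = 1.77e-15). Its close relative Kcnh5 (ENSMUSG00000034402, chr12:74897217-75177332) measured 27.4, 24.3, 27.2 and 27.6 CPM in 25Q and 7.74, 5.89, 8.42 and 5.73 CPM in 72Q (-1.93 ± 0.09, adjusted p = 2.45e-16). Every 72Q library of both genes was below every 25Q library.

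The ELK channel Kcnh3 (ENSMUSG00000037579, chr15:99224976-99242817) fell from 194, 206, 203 and 211 CPM to 103, 55.7, 104 and 61.99 CPM (-1.38 ± 0.16, adjusted p = 4.24e-05), with exp108 and exp109b again the lower libraries of 72Q. The ERG channel Kcnh7 fell by 0.75, from 99.96 ± 14.4 to 59.5 ± 8.25 CPM (SD, n = 4). The other ERG gene of the set, Kcnh2 (ENSMUSG00000038319, chr5:24319589-24351604), known for its part in repolarising the heart, went the other way. Its libraries are given because it was 1 of the 3 that rose, a choice made after its values were seen. The CPM was 17.4, 12.2, 18.8 and 17.4 in 25Q and 29.5, 23.3, 29.2 and 29.99 in 72Q, with no overlap, a change of 0.76 ± 0.08 (adjusted p = 6.7e-10). Kcnh6, an ERG gene outside the set, was not called (-0.12 ± 0.15, adjusted p = 0.495).

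Sequences at the starts of genes that moved in opposite directions, chosen after their values were seen, are shown for 2 members that fell by almost the same amount, Kcnh1 and Kcnh5, and 2 that rose, Kcnh2 and Kcna5. Each line holds 250 bases before and 50 bases after the RefSeq start on GRCm38.p6, 5′ to 3′ on the gene's own strand. The windows are chr1:192190527-192190826 on the plus strand for Kcnh1 and chr12:75177283-75177582, chr5:24329542-24329841 and chr6:126535506-126535805, all on the minus strand, for Kcnh5, Kcnh2 and Kcna5. The starts of Kcnh2 and Kcna5 lie inside the longer spans listed in the deposited files. Capitals mark the E-box CANNTG, the motif class bound by helix-loop-helix factors such as Twist1, searched over the window (the pattern reads the same on both strands).
Kcnh1: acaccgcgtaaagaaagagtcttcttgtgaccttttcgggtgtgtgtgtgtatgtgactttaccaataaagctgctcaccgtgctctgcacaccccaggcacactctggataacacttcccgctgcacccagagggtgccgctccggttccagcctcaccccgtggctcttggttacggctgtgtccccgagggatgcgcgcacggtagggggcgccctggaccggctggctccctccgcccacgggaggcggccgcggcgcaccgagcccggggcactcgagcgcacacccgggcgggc
Kcnh5: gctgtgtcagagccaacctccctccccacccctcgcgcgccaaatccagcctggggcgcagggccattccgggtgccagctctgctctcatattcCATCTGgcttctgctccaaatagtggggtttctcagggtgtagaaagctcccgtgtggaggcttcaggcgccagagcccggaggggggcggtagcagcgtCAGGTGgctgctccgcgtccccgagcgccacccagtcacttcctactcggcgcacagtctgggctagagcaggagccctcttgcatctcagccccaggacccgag
Kcnh2: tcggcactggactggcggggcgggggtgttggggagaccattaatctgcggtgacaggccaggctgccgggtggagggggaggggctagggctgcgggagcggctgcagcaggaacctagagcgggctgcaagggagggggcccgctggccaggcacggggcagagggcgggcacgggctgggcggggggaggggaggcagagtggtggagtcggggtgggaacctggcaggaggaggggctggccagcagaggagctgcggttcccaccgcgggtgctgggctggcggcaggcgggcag
Kcna5: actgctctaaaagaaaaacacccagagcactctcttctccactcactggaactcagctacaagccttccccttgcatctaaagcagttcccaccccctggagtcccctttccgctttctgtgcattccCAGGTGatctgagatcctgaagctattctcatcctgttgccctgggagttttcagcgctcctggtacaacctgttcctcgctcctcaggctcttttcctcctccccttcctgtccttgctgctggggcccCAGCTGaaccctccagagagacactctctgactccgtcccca

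Kcnh5 and Kcna5 each held 2 E-boxes, and no E-box lay in these windows of Kcnh1 and Kcnh2. A RefSeq window was matched for 33 of the 44 members, with 48 windows in all. An E-box was present in 32 of the 48, or 66.7%, and in 72.3% of the 32851 windows of all genes. The variant CAGATG, searched on both strands and counted among the E-boxes as well, was in 18.8% of member windows and 17.2% of all windows. The motif TGACG, also on both strands, was in 16.7% and 20.8%. Member windows had a median GC content of 62.7% and all windows 52.7%. These are matches of letters and describe the windows only.

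The M-current subunits Kcnq3 and Kcnq5 both fell. Kcnq3 (ENSMUSG00000056258, chr15:65986387-66286224) measured 387, 316, 433 and 435 CPM in 25Q and 158, 74.5, 189 and 99.4 CPM in 72Q, a change of -1.66 ± 0.16 (adjusted p = 7.11e-06). Kcnq5 (ENSMUSG00000028033, chr1:21398403-21961942) measured 221, 192, 208 and 209 CPM and 102, 55.97, 90.5 and 62.8 CPM (-1.45 ± 0.11, adjusted p = 4.73e-07). The groups did not overlap for either gene.

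Inward rectifiers of the set differed in the size of their fall. Kcnj2 and Kcnj4, strong rectifiers of the Kir2 subfamily, which hold the resting potential, fell most. The subfamily did not fall as a whole, since Kcnj12, a Kir2 gene outside the set, rose (0.53 ± 0.12, adjusted p = 0.000446). Kcnj2 (ENSMUSG00000041695, chr11:111066164-111076821) was scarce at 8.46, 9.90, 7.36 and 7.43 CPM in 25Q and 2.01, 1.63, 2.32 and 1.81 CPM in 72Q, a change of -2.02 ± 0.17 (adjusted p = 2.66e-11). Kcnj4 (ENSMUSG00000044216, chr15:79483718-79505241) was tightly held in 25Q, at 94.8, 96.6, 98.9 and 96.4 CPM, and stood at 35.4, 32.6, 36.5 and 26.6 CPM in 72Q (-1.57 ± 0.10, adjusted p = 5.44e-09). No library of 72Q overlapped 25Q for these genes. Of the G protein-gated subunits, which respond to neurotransmitter receptors, Kcnj3 fell by 0.89, Kcnj6 by 0.26 and Kcnj9 by 0.30 (adjusted p = 0.0497 for Kcnj9). The Kcnj9 call was lost without the 25Q library of exp108 (-0.13) and without the 25Q library of exp109a or any of the 4 libraries of 72Q, at -0.34 to -0.28.

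Channels activated by calcium or sodium fell in 5 of 6 cases. Kcnn1 (ENSMUSG00000002908, chr8:70842049-70857008), a small-conductance (SK) calcium-activated channel and the most abundant of the family per length, measured 89.7, 94.4, 94.2 and 94.2 CPM in 25Q and 55.9, 48.1, 62.5 and 45.2 CPM in 72Q, a change of -0.82 ± 0.07 (adjusted p = 3.42e-09). Kcnn2, a second SK channel, fell by 0.41, and Kcnn3 was at 32.6 ± 7.17 and 34.9 ± 4.94 CPM without a call (0.10 ± 0.07, adjusted p = 0.208). The large-conductance (BK) channel Kcnma1 fell by 0.74, from 119.5 ± 9.04 to 72.3 ± 13.6 CPM. Of the sodium-activated channels, Kcnt1 fell by 1.03, from 44.8 ± 4.19 to 21.97 ± 2.22 CPM, and Kcnt2 by 0.89, from 56.6 ± 4.20 to 30.7 ± 4.18 CPM.

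Tandem-pore leak channels of the set changed by less than 1 log2 unit. Outside the set, the leak channel Kcnk9 fell by 1.51 ± 0.08. Kcnk10 (ENSMUSG00000033854, chr12:98433994-98577940), a stretch-sensitive channel of the TREK group, measured 60.1, 51.5, 55.02 and 49.3 CPM in 25Q and 33.2, 26.9, 27.6 and 21.6 CPM in 72Q (-0.99 ± 0.07, adjusted p = 2.21e-13), with no overlap. Its relative Kcnk2 fell by 0.49 and the acid-sensitive Kcnk3 by 0.45. Kcnk1 was not called, at 21.6 ± 1.28 and 19.8 ± 0.649 CPM (-0.12 ± 0.07, adjusted p = 0.118).

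Kv4 channels, which carry the somatodendritic A-type current, were the least altered pore-forming family by their median of -0.11 log2 units. Kcnd2 (ENSMUSG00000060882, chr6:21215503-21729805), the most abundant, measured 104, 81.97, 97.4 and 95.7 CPM in 25Q and 91.6, 68.6, 82.4 and 76.9 CPM in 72Q, overlapping groups with a change of -0.25 ± 0.05 (adjusted p = 6.04e-05) and the same sign in all 4 experiments. Kcnd3 was not called (-0.11 ± 0.05, adjusted p = 0.068), and Kcnd1 rose from 20.5 ± 1.28 to 26.2 ± 1.71 CPM, by 0.35 ± 0.07.

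Among the KChIP proteins, the calcium-binding partners that bring Kv4 channels to the surface, the genes differed from each other. Kcnip2 (ENSMUSG00000025221, chr19:45791839-45816061) measured 37.8, 44.99, 39.7 and 42.7 CPM in 25Q and 18.4, 16.3, 20.5 and 16 CPM in 72Q (-1.21 ± 0.09, adjusted p = 1.61e-11). Kcnip4 fell by 1.21 ± 0.13 as well, from 41.2 ± 3.93 to 18.03 ± 5.65 CPM. Kcnip3 (ENSMUSG00000079056, chr2:127456498-127522094), the most abundant and also known as the transcriptional repressor DREAM, measured 59.1, 58.9, 68.5 and 71.4 CPM in 25Q and 63.1, 59.4, 67.5 and 70.8 CPM in 72Q, overlapping groups with no call (0.02 ± 0.06, adjusted p = 0.817). Kcnip1 was likewise not called (0.05 ± 0.06, adjusted p = 0.517).

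Kv3 channels, which allow fast spiking, fell in all 3 cases. Kcnc4 (ENSMUSG00000027895, chr3:107438303-107458898) measured 45.8, 44.7, 49.6 and 51.6 CPM in 25Q and 33.6, 25.9, 33.3 and 28.03 CPM in 72Q, a change of -0.67 ± 0.07 (adjusted p = 1.55e-09). Kcnc2 (ENSMUSG00000035681, chr10:112271123-112466304), a channel of fast-spiking interneurons, measured 22.8, 26.5, 34.8 and 31.4 CPM and 18.9, 15.5, 21.8 and 19.7 CPM (-0.60 ± 0.07, adjusted p = 5.16e-08). Neither gene's groups overlapped. Kcnc1 fell by only 0.17 ± 0.05, in overlapping groups.

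Kv1 channels, which sit on axons and near their initial segments, fell in 5 of 6 cases by less than 1 log2 unit. Kcna1 fell by 0.68, Kcna4, a fast-inactivating subunit, by 0.56, Kcna2 by 0.27 and Kcna6 by 0.21. Kcna3 (ENSMUSG00000047959, chr3:107036162-107038129), the most abundant per length over the 16 libraries, measured 30.1, 22.6, 31.2 and 31.4 CPM in 25Q and 25.4, 22.9, 29.2 and 24.8 CPM in 72Q, overlapping groups with a change of -0.17 ± 0.07 (adjusted p = 0.0371). The difference was negative in 3 of 4 experiments. Its call did not hold without any of 6 single libraries, those of exp107, exp109a and exp109b in 25Q and those of exp107, exp108 and exp109b in 72Q, at -0.18 to -0.13.

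Kcna5 (ENSMUSG00000045534, chr6:126532553-126698192), better known from heart and vascular muscle, was the exception among the Kv1 genes of the set. It measured 1.10, 1.34, 1.04 and 1.02 CPM in 25Q and 4.69, 3.62, 4.92 and 4.39 CPM in 72Q, a change of 1.86 ± 0.18 (adjusted p = 2.79e-10). Every 72Q library exceeded every 25Q library by more than 2-fold, from a low base. Kcna7, a scarce Kv1 gene outside the set, rose too, from a mean of 0.659 to 1.76 CPM (1.27 ± 0.24, adjusted p = 3.72e-05). Kcna1, Kcna5 and Kcna6 lie together within 208 kb of chromosome 6, and Kcna2, Kcna3 and Kcnc4 within 423 kb of chromosome 3. In the chromosome 6 group Kcna5 rose while Kcna1 and Kcna6 fell, and all 3 genes of the chromosome 3 group fell. The span listed for Kcna5 encloses Kcna1, with no shared exon in the annotation.

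**Figure D3:**
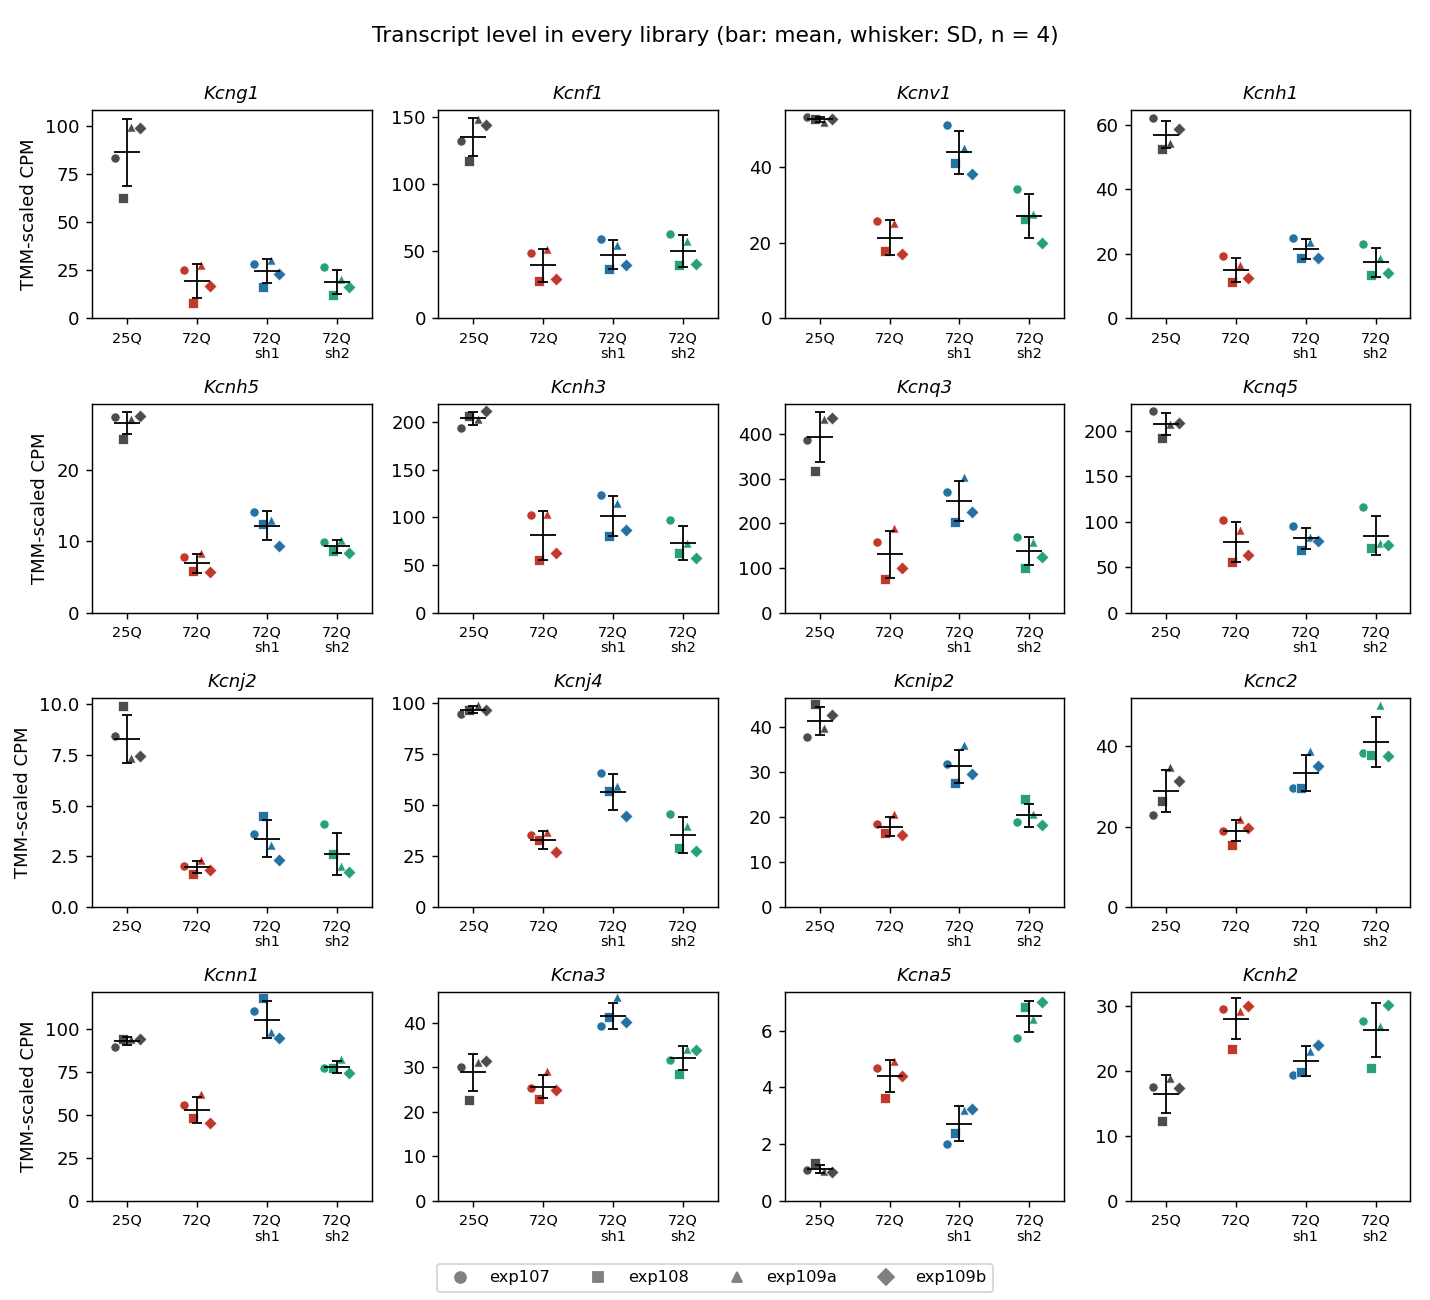
TMM-scaled CPM in every library (marker shape by experiment, colour by group) for 16 potassium channel genes, with mean (bar) and SD (whisker), n = 4. The plot shows in 14 panels a lower mean in 72Q than in 25Q, and Kcna5 and Kcnh2 a higher one. Most of these genes were chosen for a large change between 72Q and 25Q, so this count reflects the choice. Kcnip3, Kcnd2, Kcnc4 and Kcnk10, given by library in the text, are not drawn. In the shRNA columns (sh1 and sh2), Kcnv1, Kcnq3, Kcnj4 and Kcnip2 are higher with shRNA 1 than with shRNA 2.

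Other genes of the pathway, listed separately, showed the same prevailing direction. Of 37 other pore-forming potassium channel genes 22 were tested, of which 13 fell and 4 rose. Kcns3, another silent subunit, fell by 1.61 ± 0.15 and the leak channel Kcnk9 by 1.51 ± 0.08. Of 27 auxiliary and scaffold genes 19 were tested, of which 14 fell, among them the Kv1 partner Kcnab1 (-1.21 ± 0.08), the Kv4 partner Dpp10 (-1.06 ± 0.08) and the BK subunit Kcnmb4 (-0.98 ± 0.12). Falls were smaller in the related Kcnab3 (-0.45 ± 0.11), Dpp6 (-0.11 ± 0.04) and Kcnmb2 (-0.46 ± 0.15). The related Kcnab2 was not called (0.03 ± 0.04, adjusted p = 0.592). Only Abcc9 of this list rose, a sulfonylurea receptor subunit of muscle and mural cells, from 0.24 to 1.57 CPM (2.24 ± 0.30). All 4 pacemaker (HCN) genes fell, by 0.17 to 0.52. The background shares of 27.8% lower and 29.3% higher apply to these lists too.

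The next comparisons asked whether lowering Twist1 in 72Q neurons altered the same channels. With Twist1 shRNA 1, 25 of the 44 genes rose, 9 fell and 10 were not called, a share of 56.8% higher and 20.5% lower. Of all tested genes 22.7% rose and 23.6% fell. The median log2 fold change of the members was 0.29 and that of all genes -0.0054. With Twist1 shRNA 2, 20 rose, 5 fell and 19 were not called, or 45.5% higher and 11.4% lower, where 20.2% and 21.5% of all tested genes rose and fell. The median was 0.19, against 0.0015 for all genes. Both comparisons and the one above use the same 72Q control libraries, so their values are set side by side and are not independent of each other.

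Marker levels also moved with the shRNAs. With shRNA 1, 3 of 8 neuronal markers rose and 1 fell, and the summed level was 5088 to 5604 CPM. With shRNA 2, 3 rose and 3 fell, at 4559 to 5455 CPM. Of the 7 oligodendrocyte-lineage markers 5 fell with shRNA 1 and 6 with shRNA 2, and 4 of the 6 astrocyte markers fell with shRNA 2. Of the 6 neural progenitor and proliferation markers 2 fell with shRNA 1 and 5 with shRNA 2, and none rose. Endothelial, mural and meningeal markers, of which 5 were tested, gave 2 rises with shRNA 1, and 2 rises and 1 fall with shRNA 2. Their part in the channel values was not tested.

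Within the experiments, the median difference of the members with shRNA 1 was 0.25, 0.38, 0.20 and 0.35 log2 units in exp107, exp108, exp109a and exp109b. With shRNA 2 it was 0.18, 0.30, 0.08 and 0.19. Between 31 and 33 of the 44 genes were higher with shRNA 1 within each experiment. With shRNA 2, 31 or 32 were higher in exp107, exp108 and exp109b, and 25 were higher and 19 lower in exp109a. The 2 shRNAs were not equal, and the test of shRNA 1 against shRNA 2 called 33 of the 44 genes. With shRNA 1, 20 were higher (45.45%) and 13 lower (29.55%). Of all tested genes 27.3% were higher and 25.9% lower in that comparison, so the members' share lower was near that background.

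**Figure D4:**
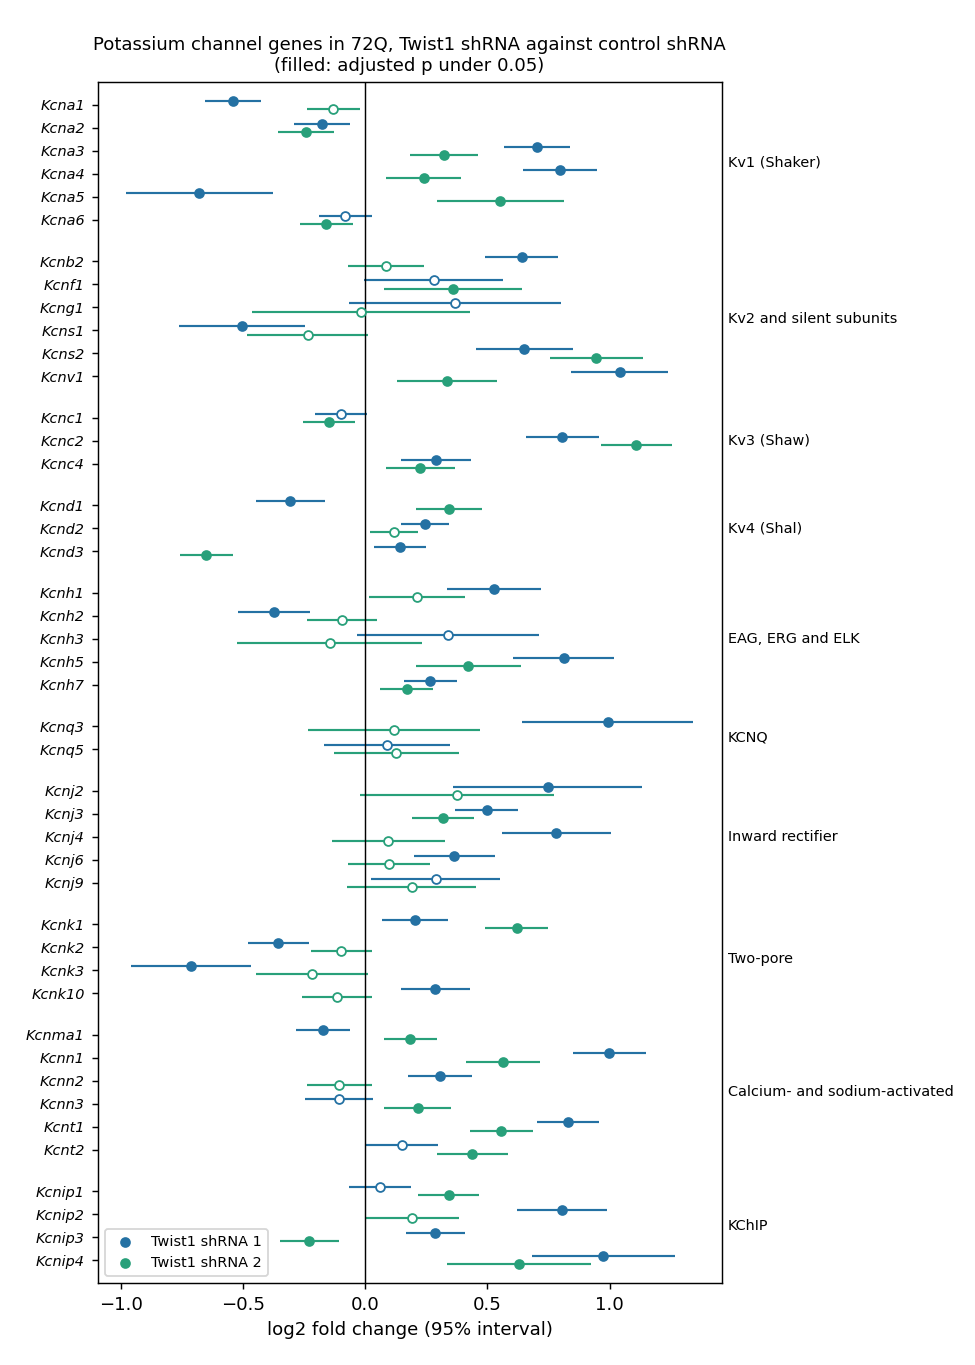
Log2 fold change of each potassium channel gene in 72Q with Twist1 shRNA 1 (blue) or shRNA 2 (green) against 72Q with the control shRNA (points, 95% interval as lines; n = 4 libraries per group). Filled points passed an adjusted p of 0.05. Kcnv1 at 1.04 with shRNA 1 and Kcnc2 at 1.11 with shRNA 2 are the furthest right, and Kcna5, Kcnd1, Kcnd3, Kcnma1 and Kcnip3 carry calls of opposite sign with the 2 shRNAs.

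Kcnv1 was the member with the largest rise under shRNA 1. Its CPM was 51.1, 41.1, 45.1 and 38.05 with shRNA 1 and 34.2, 26.3, 27.7 and 19.8 with shRNA 2, next to 25.6, 17.7, 25.1 and 16.9 with the control. The shRNA 1 libraries were all above the control libraries (1.04 ± 0.09, adjusted p = 2.21e-08), and the shRNA 2 libraries overlapped them (0.34 ± 0.10, adjusted p = 0.00914). The shRNA 2 call was lost without exp108 (0.27) and without the experiment term (0.34). The difference between the shRNAs was 0.71 ± 0.09 (adjusted p = 2.08e-06). Kcns2 rose by 0.65 with shRNA 1 and 0.95 with shRNA 2, Kcnb2 rose with shRNA 1 alone (0.64, difference between the shRNAs 0.56, adjusted p = 6.47e-07), and Kcns1 fell by 0.50 with shRNA 1, a call lost without exp109a (-0.34).

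The steeply reduced silent subunits Kcng1 and Kcnf1 gave 1 call between them. Kcng1 measured 28.4, 16.4, 30.4 and 22.9 CPM with shRNA 1 and 26.7, 12.1, 20.5 and 16.1 CPM with shRNA 2, overlapping the control, with no call (0.37 ± 0.19 and -0.02 ± 0.20, adjusted p = 0.152 and 0.957). Kcnf1 measured 58.8, 36.8, 54.5 and 39.9 CPM and 63.02, 39.8, 57.6 and 40.5 CPM, with a call for shRNA 2 only (0.28 ± 0.13 and 0.36 ± 0.13, adjusted p = 0.101 and 0.0422). The shRNAs did not differ detectably on Kcnf1, at -0.08 ± 0.13 (adjusted p = 0.632). The Kcnf1 call was lost without the control library of exp107, exp108 or exp109b or the shRNA 2 library of exp107, exp108 or exp109a, at 0.28 to 0.41.

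Kcnc2 had the largest rise under shRNA 2. Its CPM was 29.6, 29.6, 38.8 and 35.05 with shRNA 1 and 38.4, 37.9, 50.4 and 37.5 with shRNA 2, all above the 18.9, 15.5, 21.8 and 19.7 CPM of the control. The log2 fold changes were 0.81 ± 0.07 (adjusted p = 1.49e-10) and 1.11 ± 0.07 (adjusted p = 1.79e-13), the second being higher (-0.30 ± 0.07 for shRNA 1 against shRNA 2, adjusted p = 0.000318). Kcnc4 rose to 41.3, 34.8, 37.1 and 34.2 CPM with shRNA 1 (0.29 ± 0.07) and 37.5, 35.9, 36.4 and 31.1 CPM with shRNA 2 (0.22 ± 0.07). The shRNA 2 call on Kcnc4 was lost without the exp108 library of the control or of shRNA 2, at 0.17 in each case. Kcnc1 fell by 0.15 with shRNA 2 and was not called with shRNA 1 (-0.10). The difference was negative in 3 of 4 experiments, and the control or shRNA 2 library of exp107 or exp109a each ended the call when left out, at -0.14 to -0.09.

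EAG channels rose part of the way. Kcnh5 measured 14.2, 12.5, 12.9 and 9.29 CPM with shRNA 1 and 9.94, 8.70, 10.2 and 8.38 CPM with shRNA 2, rises of 0.81 ± 0.10 and 0.42 ± 0.10 (adjusted p = 1.09e-07 and 0.00159). Kcnh1 measured 24.8, 18.7, 23.6 and 18.8 CPM with shRNA 1, a rise of 0.53 ± 0.09 (adjusted p = 5e-05), and 23.2, 13.3, 18.7 and 14.2 CPM with shRNA 2, without a call (0.21 ± 0.10, adjusted p = 0.0781). All of these libraries stayed below those of 25Q. Kcnh7 rose by 0.27 and 0.17, the first call being lost without the experiment term (0.26) and the second call being lost without the exp109b control library or the exp107 or exp108 library of shRNA 2 (0.13 to 0.15). Kcnh3 was called with neither shRNA, at 123, 80.5, 115 and 86.5 CPM and 97.2, 62.4, 73.4 and 57.1 CPM (0.34 ± 0.17 and -0.15 ± 0.17). Kcnh2, which had risen in 72Q, fell by 0.38 with shRNA 1 to 21.5 ± 2.31 CPM (adjusted p = 7.82e-05) and stood at 26.2 ± 4.14 CPM with shRNA 2 without a call (-0.10, adjusted p = 0.284).

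Of these M-current subunits, Kcnq3 was called with shRNA 1. It measured 269.6, 203, 303 and 225 CPM with shRNA 1, above every control library, a rise of 0.99 ± 0.16 (adjusted p = 0.000454). With shRNA 2 it measured 169, 99.6, 158 and 124 CPM, overlapping the control (0.12 ± 0.16, adjusted p = 0.598). The shRNAs differed by 0.87 ± 0.15 (adjusted p = 0.000862). Kcnq5 was called with neither, at 95.7, 68.6, 83.05 and 78.8 CPM and 116, 71.4, 76.2 and 74.2 CPM (0.09 ± 0.12 and 0.13 ± 0.12).

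Inward rectifiers rose in 4 of 5 cases with shRNA 1 and in 1 with shRNA 2. Kcnj4 measured 65.5, 56.7, 59.2 and 44.4 CPM with shRNA 1, a rise of 0.78 ± 0.10 (adjusted p = 2.1e-05), and 45.5, 28.6, 39.4 and 27.2 CPM with shRNA 2, without a call (0.09 ± 0.11, adjusted p = 0.53). The difference between the shRNAs was 0.69 ± 0.10 (adjusted p = 5.15e-05). Kcnj2 measured 3.59, 4.50, 3.05 and 2.31 CPM with shRNA 1 (0.75 ± 0.19, adjusted p = 0.00169) and 4.08, 2.63, 2.00 and 1.70 CPM with shRNA 2 (0.37 ± 0.19, adjusted p = 0.126). Its shRNA 1 call was lost without exp108 (0.51). Kcnj3 rose with both, by 0.50 and 0.32, and Kcnj6 by 0.36 with shRNA 1. Kcnj9 was called with neither (0.29 and 0.19).

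The calcium- and sodium-activated channels were the family with the most rises under shRNA 2, 5 of 6. Kcnn1 measured 111, 118, 98.4 and 95.2 CPM with shRNA 1 and 77.3, 77.5, 82.97 and 74.2 CPM with shRNA 2, all above the control libraries (1.00 ± 0.07 and 0.56 ± 0.07, adjusted p = 1.73e-10 and 1.86e-06). With shRNA 1 every Kcnn1 library exceeded every 25Q library as well. Kcnt1 rose by 0.83 and 0.56. Kcnt2 rose by 0.44 and Kcnn3 by 0.21 with shRNA 2, neither being called with shRNA 1 (0.15 and -0.11). Kcnn2 rose by 0.31 with shRNA 1 and was not called with shRNA 2 (-0.11). Kcnma1 fell by 0.18 with shRNA 1 and rose by 0.18 with shRNA 2, a difference of -0.36 ± 0.05 (adjusted p = 1.63e-06). The fall of Kcnma1 was not called without the exp107 control library (-0.12), its rise not without exp108 (0.14), and the rise of Kcnn3 not without the exp109b control library (0.17) or the exp108 library of shRNA 2 (0.16).

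The KChIP genes rose in 3 of 4 cases with shRNA 1. Kcnip2 measured 31.8, 27.5, 35.99 and 29.4 CPM with shRNA 1 (0.80 ± 0.09, adjusted p = 5.09e-08) and 18.8, 23.9, 20.6 and 18.2 CPM with shRNA 2 (0.19 ± 0.09, adjusted p = 0.103), a difference of 0.61 ± 0.09. Kcnip4 rose with both, by 0.97 and 0.63. Kcnip3 measured 74.2, 80.2, 82.4 and 80.96 CPM with shRNA 1, above the control (0.29 ± 0.06), and 54.96, 57.7, 48.9 and 60.9 CPM with shRNA 2, a fall (-0.23 ± 0.06, adjusted p = 0.00235). The fall was not called without the exp109a library of shRNA 2 (-0.14). Kcnip1 rose by 0.34 with shRNA 2 and was not called with shRNA 1 (0.06).

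Kv4 channels differed between the shRNAs in all 3 cases, least of all Kcnd2. Kcnd3 stood at 77.5 ± 8.23 CPM with the control, 85.4 ± 8.39 with shRNA 1 and 49.2 ± 1.67 with shRNA 2, changes of 0.14 and -0.65 and a difference of 0.79 ± 0.05 (adjusted p = 2.29e-13). The shRNA 1 call on Kcnd3 was lost without the exp108 or exp109b control library or the exp107 or exp109b shRNA 1 library, at 0.09 to 0.14. Kcnd1 fell by 0.31 with shRNA 1 and rose by 0.34 with shRNA 2. Kcnd2 measured 96.4, 84.9, 96.2 and 99.7 CPM with shRNA 1 (0.24 ± 0.05, adjusted p = 0.000108) and 95.5, 78.7, 87.9 and 83.8 CPM with shRNA 2 (0.12 ± 0.05, adjusted p = 0.0505). The shRNA 1 call on Kcnd2 was lost without the experiment term (0.24). The difference between the shRNAs on Kcnd2 was 0.13 (adjusted p = 0.0265). That call was lost when any of 4 single libraries was left out, at 0.09 to 0.12.

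Of the tandem-pore genes, Kcnk1 rose with both shRNAs, by 0.20 and 0.62. Kcnk10 measured 37.1, 29.97, 36.3 and 29.4 CPM with shRNA 1, a rise of 0.29 ± 0.07, and 31.9, 25.9, 23.1 and 20 CPM with shRNA 2, without a call (-0.12 ± 0.07, adjusted p = 0.191). The rise was not called without the experiment term (0.28). Kcnk3 and Kcnk2 fell further with shRNA 1, by 0.71 and 0.36, and were not called with shRNA 2 (-0.22 and -0.10). The Kcnk1 call with shRNA 1 was lost without the exp107 library of the control (0.18) or of shRNA 1 (0.17).

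Among Kv1 genes, Kcna3 and Kcna4 rose with both shRNAs. Kcna3 measured 39.1, 41.2, 45.7 and 40.04 CPM with shRNA 1, above all 25Q libraries, and 31.6, 28.4, 34.1 and 33.9 CPM with shRNA 2 (0.70 ± 0.07 and 0.32 ± 0.07, adjusted p = 4.46e-10 and 0.000265). Kcna4 rose by 0.80 and 0.24. Kcna1 fell by 0.54 with shRNA 1 (-0.13 with shRNA 2, no call), Kcna2 fell by 0.18 and 0.24, and Kcna6 fell by 0.16 with shRNA 2 (-0.08 with shRNA 1, no call). Single libraries ended some of these calls, for Kcna2 with shRNA 1 the exp109a control library (-0.14). With shRNA 2 the Kcna2 call was lost without the experiment term (-0.24). For Kcna4 with shRNA 2 they were the exp109b control library (0.15) and the exp107 library of shRNA 2 (0.18), and for Kcna6 the exp109a control library (-0.14) and the exp109b library of shRNA 2 (-0.11).

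Kcna5 gave the largest difference between the shRNAs. It measured 2.00, 2.40, 3.22 and 3.24 CPM with shRNA 1, below every control library, and 5.75, 6.84, 6.43 and 7.00 CPM with shRNA 2, above every control library. The changes were -0.68 ± 0.15 (adjusted p = 0.000336) and 0.55 ± 0.13 (adjusted p = 0.000768), a difference of -1.23 ± 0.14 (adjusted p = 9.65e-09). Both shRNA groups remained above the 25Q libraries. Twist1 itself did not differ detectably between the shRNAs (-0.07 ± 0.22 log2 units, 95% interval -0.53 to 0.39).

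The other potassium channel lists were followed with each shRNA as well. Of the 19 auxiliary and scaffold genes tested, 13 rose and 2 fell with shRNA 1, and 7 rose and 4 fell with shRNA 2. Among the 22 other pore genes 8 rose and 6 fell with shRNA 1, and 8 rose and 3 fell with shRNA 2. The shares of all tested genes, 22.7% higher and 23.6% lower with shRNA 1 and 20.2% and 21.5% with shRNA 2, apply to these lists too, and the falls of the pore list with shRNA 1 were near that background. Kcnk9 rose with both, by 0.96 ± 0.09 and 0.41 ± 0.09. The 4 HCN genes gave 1 rise and 2 falls with shRNA 1, and no rise and 3 falls with shRNA 2.

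The last comparisons set the knockdown neurons against 25Q, asking how far the channels stood from the wild-type level with Twist1 lowered. In 72Q with shRNA 1, 26 of the 44 genes were lower than in 25Q, 7 were higher and 11 were not called, at a median of -0.30 log2 units. Of all tested genes 29.4% were lower and 28.1% higher. The members' split of 21.2% higher among called genes became 36.1% (13 higher and 23 lower) without scaling beyond library totals. The share higher among all called genes moved as well, from 48.9% to 66.5%. In 72Q with shRNA 2, 33 were lower, 8 were higher and 3 were not called, at a median of -0.54. There 31.8% of all tested genes were lower and 31.4% higher. A difference that was not called does not show equal levels.

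Kcng1, Kcnh1, Kcnq5, Kcnf1 and Kcnh3 remained more than 1 log2 unit below 25Q with either shRNA, at -1.83, -1.41, -1.36, -1.53 and -1.05 with shRNA 1 and -2.22, -1.73, -1.32, -1.45 and -1.53 with shRNA 2. So did Kcnh5 (-1.12 and -1.51) and Kcnj2 (-1.27 and -1.64). Kcns1 also stood there (-1.30 and -1.03), though it had been 0.79 below in 72Q with the control. Kcna1 and Kcnk3 were further from 25Q with shRNA 1 than with the control, at -1.22 and -1.17 against -0.68 and -0.45.

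Others came close to or above their 25Q level. Kcnn1 was 0.18 above it with shRNA 1 and 0.26 below with shRNA 2, and Kcna3 was above it with both (0.53 and 0.15). Kcnc2 was above it with both as well (0.21 and 0.51). Kcnb2 stood at 66.5 ± 5.13 CPM with shRNA 1, without a call, and 66.9 ± 11.5 CPM in 25Q. Kcns2 stood at 16.5 ± 3.04 CPM with shRNA 2, without a call, and 16.6 ± 0.658 CPM in 25Q. Kcnv1 was 0.27 below with shRNA 1 and 0.98 below with shRNA 2, and Kcnip4 was 0.58 below with shRNA 2 and without a call with shRNA 1. Leaving out single libraries ended the calls of Kcnn1 (5 libraries, 0.11 to 0.18), Kcnc2 (1, 0.13) and Kcnv1 (2, -0.24 to -0.17) with shRNA 1 and of Kcna3 with shRNA 2 (5, 0.08 to 0.16).

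Reads of some members may include other genes. Exons of Kcna6, Kcnd3, Kcnh7, Kcnq5, Kcnj3, Kcnn2 and Kcnip4 overlap those of another listed gene on the opposite strand, and the strand setting of the counting is unstated in the labels and headers read here. The remaining 37 members had no such overlap. Values of these 7 are therefore uncertain to that extent.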

How the data were processed

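Raw read counts per Ensembl gene were deposited by the authors for 16 libraries, aligned with STAR 2.0.4b and counted with featureCounts 1.45 of Subread on GRCm38, per the submitters' processing notes. Deposited CPM and RPKM columns equalled rescaled counts, with largest differences of 2.5e-11 and 4.9e-11, and were only compared. No source used here gives the annotation release or strand setting. Symbols came from GENCODE release M21 (97.3% of listed identifiers), coordinates from the deposited files and promoter sequences from RefSeq on GRCm38.p6.

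After filterByExpr, 15103 genes were tested with the quasi-likelihood test of edgeR 4.0.16 (R 4.3.3; TMM factors, robust fit, prior count 2), with group and experiment as terms over all 16 libraries. The common biological coefficient of variation was 5.24%, and p-values were Benjamini-Hochberg adjusted over all genes, with a threshold of 0.05. CPM and RPKM in the text are TMM-scaled, RPKM per kilobase of the listed gene length. Differences within an experiment used log2 of CPM plus 0.1.

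Experiment was a block because the labels give each experiment 1 library of every group and libraries of the same experiment deviated together from their group means (r across genes 0.22 to 0.61 over 24 pairs, and -0.333 to 0.057 for libraries of different experiments other than exp109a with exp109b, across genes that are not independent). Libraries of exp109a and exp109b also deviated together (0.041 to 0.278), and the labels do not say how these experiments relate. Chi-square per degree of freedom between replicates was 2.71 to 20.8, above sampling noise, so none was a repeat deposit. Beyond the experiment labels nothing states that cultures were separate, and the tests rest on the spread among these libraries.

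Members were named for all 44 genes. Values by library were given for up to 12 members per comparison that were called, changed by at least 1 log2 unit and had the same sign in all experiments, and for the highest member per length in each family. The members and lists were chosen with earlier results of these data known. Alternatives were RLE, upper-quartile or no factors, no filter, DESeq2 1.42.0, no block, a block from the title number, only the groups compared, and each library or experiment left out.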

Additional observations from a re-analysis of the deposited data

Results flagged for a closer look

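In groups of 4 libraries, a library was singled out where its gap to the nearest other library as a share of the group's whole range passed Dixon's 95% critical value. Over 176 sets of 44 genes and 4 groups, 11 libraries met this, and chance alone singles out about 1 set in 20. In 5 of the 11 the library was that of exp108 in 25Q. It was low for Kcna3 at 22.6 CPM (others 30.1 to 31.4), Kcnb2 at 49.7 (71.9 to 73.6), Kcnd3 at 69.7 (87.2 to 89.9), Kcnh5 at 24.3 (27.2 to 27.6) and Kcnk2 at 48.5 (55.6 to 56.1). Without that library, 72Q against 25Q called 3 members higher and 36 lower, with the call of Kcnj9 lost and that of Kcnd3 gained (-0.15).

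The exp107 library of 25Q was low for Kcnn1 at 89.7 CPM (others 94.2 to 94.4) and Kcnt1 at 38.6 (46.2 to 47.7). In 72Q with the control shRNA, the exp108 library was low for Kcnh2 at 23.3 CPM (29.2 to 30.0) and high for Kcnk1 at 20.7 (19.4 to 19.6). With shRNA 2, Kcnc2 was high in exp109a at 50.4 CPM (37.5 to 38.4) and Kcnq5 in exp107 at 116.2 (71.4 to 76.2).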

How the results depend on the processing

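Of the members called in the main analysis, 33 of 39 were called under every alternative run in 72Q against 25Q, 25 of 34 with shRNA 1 and 14 of 25 with shRNA 2. The calls lost at least once in 72Q against 25Q were those of Kcna2, Kcna3, Kcna6, Kcnc1, Kcnj6 and Kcnj9. With shRNA 1 they were those of Kcna2, Kcnd2, Kcnd3, Kcnh7, Kcnj2, Kcnk1, Kcnk10, Kcnma1 and Kcns1, and with shRNA 2 those of Kcna2, Kcna4, Kcna6, Kcnc1, Kcnc4, Kcnf1, Kcnh7, Kcnip3, Kcnma1, Kcnn3 and Kcnv1. Leaving out 1 library or experiment gave 36 to 39 called members in 72Q against 25Q, 32 to 35 with shRNA 1, 20 to 26 with shRNA 2 and 29 to 34 for shRNA 1 against shRNA 2. Against 25Q the ranges were 32 to 33 with shRNA 1 and 38 to 42 with shRNA 2. DESeq2 gave 39, 34 and 25 in the first 3 comparisons. Without the replicate block the counts fell to 15 (13 higher, 2 lower) with shRNA 2 and 20 (13 and 7) for shRNA 1 against shRNA 2, and with a block from the title number to 16 (14 and 2) with shRNA 2. In the other comparisons the counts stayed within 1.5 times under each alternative. Without scaling beyond library totals, the median of all genes in 72Q against 25Q moved from 0.03 to 0.163 log2 units, and the members split into 6 higher and 31 lower (4 and 33 with upper-quartile factors, which moved it to 0.092). Of all called genes, 51.4% were higher in that comparison, against 60.7% with upper-quartile factors and 69.7% without scaling. For shRNA 1 against shRNA 2, the members' split of 20 higher and 13 lower became 15 and 14 without scaling. The share higher among all called genes there went from 51.3% to 36.5%.

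Signs turned only for values near 0 that were not called, apart from Kcnd2. In 72Q against 25Q these were Kcnd3 at 0.0225 and Kcnk1 at 0.0117 without scaling, and, with 1 library or experiment left out, Kcnip1 at -0.0047 (without exp107) to 0.106 and Kcnip3 at -0.0201 to 0.0539. With shRNA 2, Kcng1 was at 0.0207 with upper-quartile factors, 0.0595 without scaling, 0.0253 with DESeq2 and -0.1662 to 0.1515 with 1 library or experiment left out. Under the same leave-outs Kcnb2 ranged from -0.006 (without the exp109b control library) to 0.1344 and Kcnj4 from -0.0141 (without the exp107 library of shRNA 2) to 0.1774. Kcnd2, called lower than 25Q with shRNA 2, was at 0.0779 without scaling. The causes were not tested, and members at a few CPM (Kcna5, Kcnj2) are limited by counting.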
